A study of Homo sapiens with 10 samples.

Results

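Of the 31310 genomic regions that the authors listed for Kelly neuroblastoma cells, 1331 were called RCOR2-high and lay away from the ends of protein-coding genes. A region counted as distal when it shared no base with the 2 kb either side of either end of a RefSeq protein-coding gene on GRCh38. The other 5342 of the 6673 RCOR2-high regions lay at gene ends, and 19281 of the 24637 RCOR2-low regions were distal by the same rule. The members were therefore chosen by the authors' RCOR2-high call and by position, and every value of induced RCOR2 in them is a description.

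The peaks came from chromatin immunoprecipitation and sequencing (ChIP-seq) in Kelly, an adrenergic neuroblastoma cell line with amplified MYCN. In the tested arm, RCOR2 with a FLAG tag was pulled down by its tag after 48 h of doxycycline at 2 µg/mL. Antibodies to the proteins themselves were used for RCOR1 and RCOR3, in Kelly cells without treatment. The LSD1 libraries came from a further Kelly line, also without treatment, that holds an shRNA to RUNX1T1 which doxycycline would switch on. The background was the FLAG pull-down without doxycycline, called uninduced here. Each of these 5 groups has 2 libraries, and the labels do not say whether they are separate cultures. Tagged RCOR2 was made from a transgene, and the sources used here name neither its promoter nor a number of clones.

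RCOR1, RCOR2 and RCOR3 are the CoREST proteins, scaffolds that tie the histone demethylase LSD1 (gene symbol KDM1A) to the histone deacetylases HDAC1 and HDAC2. LSD1 removes methyl groups from lysine 4 of histone H3, a mark of active enhancers and promoters, and the complex is best known for silencing neuronal genes together with the factor REST. RCOR2 is the form most prominent in neural progenitors and embryonic stem cells. Regions away from the ends of genes can be enhancers, but they can also be starts of noncoding RNAs or starts inside a gene.

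Many distal RCOR2-high regions held a start of transcription all the same. A RefSeq table of start windows lists several starts for many genes, and each window covers 250 bases before to 50 bases after a start. Of the 1331 regions, 416 (31.3%) held a listed start of a protein-coding gene, away from the outer ends of the gene, against 1.97% of distal RCOR2-low regions. Of all listed regions 24.3% held a coding start of any kind, those at gene ends included. For 412 of the 416 it was a start of the nearest gene, and the starts belonged to 407 genes. HDGF, a growth factor gene, and UIMC1, a gene of DNA repair, were among the strongest. A further 155 regions (11.6%) held a start of a long noncoding RNA (lncRNA) and none of a coding gene, against 1.49% of distal RCOR2-low regions. With those that held both, 223 regions held a lncRNA start, where 6.2% of all listed regions did. The remaining 760 regions (57.1%) held no listed start, against 96.5% of distal RCOR2-low regions. The table is not complete, so these regions may hold starts that it lacks.

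Where a distal RCOR2-high region held an end of a lncRNA gene with a listed start window, that end was mostly the start. Such windows were listed for 11383 of the 18177 lncRNA genes, and only these genes were counted. Of 244 such genes with an end inside a distal RCOR2-high region, 230 had only the start there, 11 only the finish and 3 both. Whether the same holds for lncRNA genes without a listed window was not tested. Of these windows, 4 are shown to print the density of the dinucleotide CpG, which was high at most of these starts. LINC03065 and GATA3-AS1 had the strongest induced RCOR2 among lncRNAs with a gene symbol of their own and a start window in such a region, and MALAT1 and MIR17HG were chosen after their values were seen. GATA3-AS1 runs opposite to GATA3, an adrenergic transcription factor gene. MALAT1 is an abundant nuclear RNA, and MIR17HG is the host of an oncogenic miRNA cluster that MYC family proteins activate. The windows are RefSeq sequence of GRCh38.p14, 5′ to 3′ on the strand of the gene, and capitals mark each CpG. They lie at chr15:56886818-56887117 (plus strand), chr10:8053373-8053672 (minus strand), chr11:65497488-65497787 (plus strand) and chr13:91347437-91347736 (plus strand), in the order given.
LINC03065: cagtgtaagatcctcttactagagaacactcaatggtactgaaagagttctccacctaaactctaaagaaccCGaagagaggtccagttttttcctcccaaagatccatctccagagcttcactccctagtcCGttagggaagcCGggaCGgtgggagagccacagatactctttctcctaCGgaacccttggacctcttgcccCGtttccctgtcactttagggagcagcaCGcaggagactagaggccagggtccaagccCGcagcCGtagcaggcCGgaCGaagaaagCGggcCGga
GATA3-AS1: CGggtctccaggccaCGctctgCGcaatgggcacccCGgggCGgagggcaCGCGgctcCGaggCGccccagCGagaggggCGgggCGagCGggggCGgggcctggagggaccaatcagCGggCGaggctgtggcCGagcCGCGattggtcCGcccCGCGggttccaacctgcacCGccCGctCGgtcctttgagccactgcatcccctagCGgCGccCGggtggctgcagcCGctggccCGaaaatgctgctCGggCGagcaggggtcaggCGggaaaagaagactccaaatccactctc
MALAT1: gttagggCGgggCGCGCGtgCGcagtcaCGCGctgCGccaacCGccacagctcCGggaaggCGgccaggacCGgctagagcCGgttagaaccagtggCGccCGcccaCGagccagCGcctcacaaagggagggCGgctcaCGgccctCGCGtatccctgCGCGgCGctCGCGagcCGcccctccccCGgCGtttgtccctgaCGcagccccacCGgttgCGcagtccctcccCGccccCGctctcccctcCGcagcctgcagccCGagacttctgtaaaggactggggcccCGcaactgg
MIR17HG: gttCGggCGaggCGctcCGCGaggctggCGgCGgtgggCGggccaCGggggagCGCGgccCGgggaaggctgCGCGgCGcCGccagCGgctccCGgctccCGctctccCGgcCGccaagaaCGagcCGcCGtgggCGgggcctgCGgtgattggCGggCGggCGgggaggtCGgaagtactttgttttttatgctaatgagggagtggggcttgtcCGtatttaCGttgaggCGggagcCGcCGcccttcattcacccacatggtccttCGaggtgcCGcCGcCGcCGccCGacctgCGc

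The MIR17HG window held 42 CpG dinucleotides in 300 bases, the MALAT1 window 37, the GATA3-AS1 window 33 and the LINC03065 window 13. LINC03065 was thus the exception among the 4, with 54.7% G and C, against 73.7% for MALAT1 and 73.0% for both GATA3-AS1 and MIR17HG. Over all 269 lncRNA start windows in distal RCOR2-high regions, the median G and C content was 70.3% and the median ratio of observed to expected CpG was 0.853. The 362 lncRNA start windows in distal RCOR2-low regions had medians of 58.0% and 0.548. All 9958 lncRNA start windows away from coding gene ends had 47.0% and 0.231. The 545 coding start windows in distal RCOR2-high regions were as rich, with 71.3% and 0.869, against 62.3% and 0.738 over all 22132 coding start windows.

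**Figure D1:**
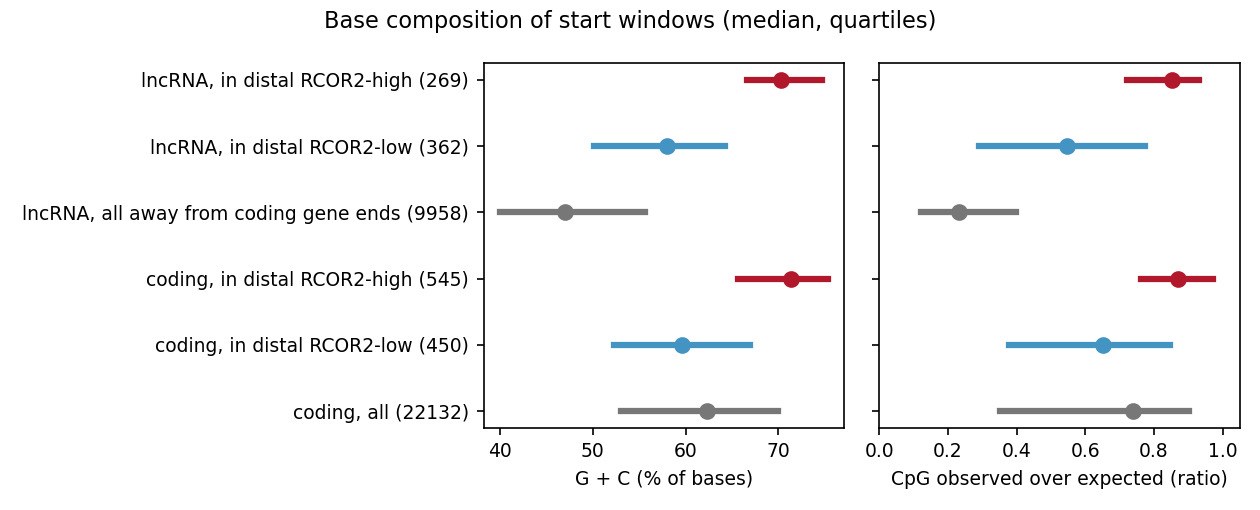
Base composition of 300-base start windows, as the share of G and C (left, percent of bases) and the ratio of observed to expected CpG (right). Points are medians and bars run between the quartiles, with the number of windows in brackets; the windows in distal RCOR2-high regions stand highest in both, at medians of 70.3% and 0.853 for lncRNA starts.

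The regions that hold these starts and those of other well-studied lncRNAs had a peak of at least 1 RCOR1 library beside induced RCOR2 and mostly no LSD1. This is the common state of distal RCOR2-high regions, of which 94.5% had such an RCOR1 peak and 87.2% no LSD1 peak. LINC03065, near TCF12, had 37.6 and 75.5 in the induced libraries, with RCOR1 at 9.39 and 10.5, RCOR3 at 4.20 and 7.46 and a peak in both uninduced libraries. MALAT1 had 29.4 and 73.2 in the induced libraries, with RCOR1 at 9.25 and 5.92, RCOR3 at 5.03 and 10.2 and 7.41 in uninduced replicate 1. Neither had an LSD1 peak, nor had GATA3-AS1. SNHG5, a host gene of snoRNAs, was an exception, with LSD1 at 3.59 and 4.19 beside 20.5 and 71.8 for induced RCOR2. NORAD, an abundant cytoplasmic RNA, had 18.6 and 23.5 in the induced libraries, and RCOR1 in replicate 1 alone (6.99). CHASERR, which lies beside CHD2, had 12.7 and 52.1 in the induced libraries, RCOR1 in replicate 1 alone (4.19) and no uninduced peak. SNHG5, NORAD and CHASERR were named after their values were seen.

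Short motifs were counted on both strands of the same windows, and a match is no proof of a site. GGGCGG, the GC box bound by SP family factors, was in 78.4% of the 269 windows in distal RCOR2-high regions, in 40.3% of those in distal RCOR2-low regions and in 45.0% of all 34961 start windows. CACGTG, the E-box that MYC family proteins bind, was in 10.8%, 6.91% and 7.27% of these windows. AGATAA, bound by zinc finger factors such as GATA3, was in 1.86%, 10.5% and 10.3%. TATAAA, the TATA box, was in 3.35%, 8.29% and 11.5%. GC-rich motifs were thus more frequent and AT-rich ones less frequent in windows that are themselves rich in G and C. What base composition alone contributes to these shares was not tested.

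Small RNA genes formed a second noncoding set. Of the 1331 regions, 23 (1.73%) lay within 2 kb of an end of a miRNA gene. The share was 1.91% of RCOR2-high regions at gene ends and 0.550% of distal RCOR2-low regions. The 23 regions had 32 miRNA genes among them, of which 14 touched the region itself. The sources held 50 mature sequences for them, with 46 different seeds. Shown are those of the best-known neural and oncogenic members, with the seed (bases 2 to 8) in capitals, since it decides which messengers a miRNA pairs with.
hsa-miR-17-5p: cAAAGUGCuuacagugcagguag
hsa-miR-20a-5p: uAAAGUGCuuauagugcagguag
hsa-miR-19a-3p: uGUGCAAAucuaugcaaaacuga
hsa-miR-19b-3p: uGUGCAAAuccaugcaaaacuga
hsa-miR-132-3p: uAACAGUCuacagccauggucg
hsa-miR-212-3p: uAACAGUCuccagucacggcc
hsa-miR-9-5p: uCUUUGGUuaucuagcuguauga
hsa-let-7e-5p: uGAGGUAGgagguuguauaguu

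The first and second of these share their seed, as do the next pair, the miR-19 family, and miR-132 with miR-212. The genes MIR17, MIR20A, MIR19A and MIR19B1 lie 1216 to 1803 bp from the MIR17HG region at chr13:91346978-91349389, which had a fold enrichment of 11.9 and 42.5 in the induced libraries. That region held RCOR1 (5.70 and 6.30), a peak of RCOR3 replicate 2 (4.48), no LSD1 peak and no uninduced peak. MIR132 and MIR212, a pair of activity-regulated neuronal miRNAs, lay within a region at chr17:2049612-2051641 near HIC1. It had 19.9 and 47.3 in the induced and 4.67 and 6.60 in the uninduced libraries. MIR9-3, one of the genes for the neurogenic miR-9, lay within chr15:89367400-89368433 with 14.7 and 30.8. MIRLET7E, MIR99B and MIR125A stood beside chr19:51688553-51691472, with 39.5 and 52.6. No LSD1 peak was found in any of these 4 regions, nor in 87.2% of all 1331. Both LSD1 libraries did have a peak in the regions by MIR658 (5.75 and 5.13) and MIR10396A (4.67 and 18.1). The regions of MIR17HG, MIR9-3, MIR658 and MIR10396A were named after their values were seen.

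Other noncoding genes were counted by either end. An end of any noncoding gene lay within 2 kb of 405 distal RCOR2-high regions (30.4%, 95% Wilson interval 28.0 to 33.0%) and of 2095 distal RCOR2-low regions (10.9%), where 16.7% of all listed regions had one. RCOR2-high regions at gene ends had nearly the same share, 29.3%. The difference from distal RCOR2-low regions was 19.6 percentage points (SE 1.28, adjusted Fisher's exact p = 5.85e-76, two-sided). Regions are not replicates, so this p and the intervals cover counting error only. Of the 405, 368 were at lncRNA genes, 13 at tRNA genes, 8 at snoRNA genes, 5 at rRNA genes and 3 at snRNA genes. In that order these were 27.6%, 0.977%, 0.601%, 0.376% and 0.225% of the 1331 regions. RCOR2-high regions at gene ends had 27.4%, 0.393%, 0.487%, 0.0187% and 0.0374%. Distal RCOR2-low regions had 9.78%, 0.420%, 0.145%, 0% and 0.135%. Pseudogene ends were near 7.59% of distal RCOR2-high regions, against 2.17% of distal RCOR2-low and 2.65% of all listed regions. The noncoding difference was 10.7 points among distal regions that held no listed start. Distal RCOR2-high regions were also wider, with a median of 1250 bp against 480 bp for distal RCOR2-low regions, and set to 500 bp each they kept the call.

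The 5 regions at rRNA genes belong to the array of 5S ribosomal RNA genes on chromosome 1, which RNA polymerase III transcribes. All were nearest to RHOU, and they were named after their values were seen. The widest of the 1331, with 13257 bp, was one of them, at chr1:228629325-228642581. It had 41.1 and 42.9 in the induced libraries, 5.40 and 7.60 in the uninduced libraries. RCOR1 had 3.64 and 5.20 there, and RCOR3 had 2.58 and 15.2. The RCOR3 values of the 5 regions lay between 2.27 and 3.28 in replicate 1 and between 10.9 and 15.2 in replicate 2, so the replicates differed by more than the regions did. The 5S genes are near-identical copies, and the sources used here do not say how reads from such repeats were placed.

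Outside starts and noncoding genes, position varied widely. Of the 1331 regions, 765 (57.5%) lay inside a protein-coding gene. Outside such genes, 267 lay more than 2 kb from an end of any gene, though some of these may lie inside a noncoding gene. The distance to the nearest end of a coding gene had a median of 15077 bp (range 2023 to 669435 bp), against 38244 bp for distal RCOR2-low regions. The region farthest out, at chr5:12573881-12575041 near LINC01194 and CTNND2, had a peak in both induced libraries and none in the other 8. Just inside the 2 kb limit were regions near EEF1A2 (2023 bp) and PHYHIPL (2027 bp), with 29.5 and 15.7, and 31.5 and 71.2. Just outside it were regions near NPW (1996 bp) and RNF207 (1998 bp), with 8.80 and 31.4, and 26.0 and 33.6.

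The fold enrichment printed here and below is the authors' value for the strongest peak of a library in the region, replicate 1 first. Induced RCOR2 had a peak in 1330 and 1329 of the 1331 regions, where 56.3% and 54.8% of all listed regions had one, with medians of 19.5 (range 5.45 to 143) and 39.3 (range 5.50 to 118). Read depth is unknown, and the 2 libraries had 75643 and 59726 peaks in all. Replicate 2 was higher than replicate 1 in 1187 of the 1328 regions with both, by a median ratio of 1.90, and the ranks of the regions in both were related only loosely (Spearman rho = 0.34 across regions, which are not independent). Regions at gene ends had nearly the same medians, 19.4 and 40.7. The 3 regions without both induced peaks were next to CATSPERE, LPIN1 and LOC101927345.

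**Figure D2:**
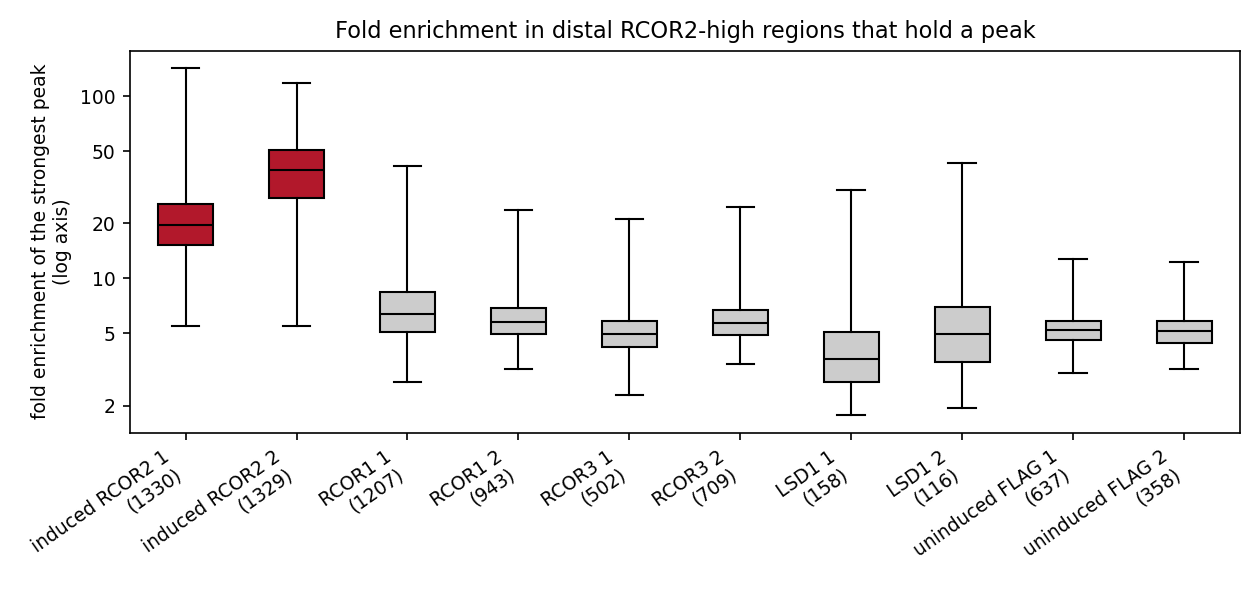
Fold enrichment of the strongest peak (log axis) in distal RCOR2-high regions that held a peak, for each of the 10 libraries, with the number of such regions in brackets. Boxes span the quartiles, lines in them mark the medians and whiskers run from the lowest to the highest region; the induced libraries stand at medians of 19.5 and 39.3 and all others at 3.62 to 6.37.

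Like most of the 1331, the regions with the highest induced fold in both libraries had little LSD1. First by the lower of the percentile ranks was one at chr17:83204987-83206161, 109865 bp from METRNL, a gene for a secreted hormone, with 89.2 and 112. Next came chr15:99926195-99928731 near ADAMTS17, a gene for a secreted metalloprotease, with 143 and 104, and chr1:156750924-156752523 inside HDGF, with 63.1 and 91.4. The others of the first 10 were nearest to RPS24, FOXK1, B4GALNT3, LRCOL1, PRRC2B, ZFAT and LRRC23. All 10 held both RCOR1 libraries, at 4.97 to 13.1 in replicate 1. Of these regions those near FOXK1 (2.38) and PRRC2B (3.53) had a peak in LSD1 replicate 1, none had one in replicate 2, and all had at least 1 uninduced peak. Over all 1331 regions, 11.9% had a peak of LSD1 replicate 1, 8.72% one of replicate 2 and 58.5% at least 1 uninduced peak.

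RCOR1 was the most frequent partner. A peak of both RCOR1 libraries lay in 892 distal RCOR2-high regions (67.0%, 95% interval 64.4 to 69.5%), where 39% of all listed regions had one. Replicate 1 had a peak in 90.7% and replicate 2 in 70.8%, against 91.6% and 40.4% of all listed regions, and the median folds were 6.37 and 5.78. At gene ends 66.6% had both, and the difference of 0.394 points (SE 1.44) was not called (adjusted Fisher's exact p = 0.795). It was called with peaks above each library's median q-value score (3.67 points) and with regions set to 500 bp (4.83 points), both in favour of distal regions. For 93.8% of the 1331 regions, merging overlapping RCOR1 and induced RCOR2 peaks gave the same start and end, against 50.6% for induced RCOR2 peaks alone. The bounds therefore follow RCOR1 peaks in part, and RCOR1 sharing is not independent of how the regions were drawn.

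RCOR3 was found in fewer regions, and its replicates differed. Both RCOR3 libraries had a peak in 381 regions (28.6%, 95% interval 26.3 to 31.1%), where 21.5% of all listed regions had one. Replicate 1 had a peak in 37.7% (median fold 4.93) and replicate 2 in 53.3% (median fold 5.66), against 34.5% and 33.7% of all listed regions. Of the 381 regions, 359 (94.2%) also held both RCOR1 libraries. The share was 4.08 points above that at gene ends, 24.5% (SE 1.37, adjusted Fisher's exact p = 0.00344), and with either replicate alone the difference lost its call (1.96 points without replicate 1 and 2.75 points without replicate 2).
Against distal RCOR2-low regions (22.1%) it was 6.55 points higher (SE 1.27, adjusted Fisher's exact p = 1.35e-07). That direction turned among regions without an uninduced peak (difference -4.16 points) and against the 4466 distal RCOR2-low regions with both induced peaks, which held RCOR3 in 38.8% (difference -10.2 points). It was 23.4 points without RCOR3 replicate 1 and 2.29 points, without a call, without replicate 2.

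LSD1 was the rarest. Both LSD1 libraries had a peak in 103 distal RCOR2-high regions (7.74%, 95% interval 6.42 to 9.30%), where 32.3% of all listed regions had one. Replicate 1 had a peak in 158 regions (11.9%) and replicate 2 in 116 (8.72%), against 39.1% and 37.7% of all listed regions. The median folds of 3.62 and 4.92 stood at percentiles 13.3 and 30.7 of all peaks of their library. At gene ends 3.24% held LSD1, so distal regions were 4.50 points higher (SE 0.771, adjusted Fisher's exact p = 2.0e-11), and both replicates were higher there (11.9% against 8.14%, and 8.72% against 4.10%). In distal RCOR2-low regions 48.0% held it, so distal RCOR2-high regions were 40.3 points lower (difference -40.3, SE 0.816, adjusted Fisher's exact p = 2.54e-213). Both differences kept direction and call under all alternatives run.
Over the 6 libraries of RCOR1, RCOR3 and LSD1 the shares of regions with a peak gave F = 23.1 with an exact permutation p of 0.0667, the smallest that 15 assignments allow, so 6 libraries cannot reach the threshold of 0.05. LSD1 was lowest in both of its libraries, and RCOR1 highest in both of its own. Since the region bounds follow RCOR1 peaks in part, the place of RCOR1 and its part in F are not independent of how the regions were drawn. LSD1 was measured in other cells than the 3 CoREST proteins, and cell line and protein cannot be told apart.

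**Figure D3:**
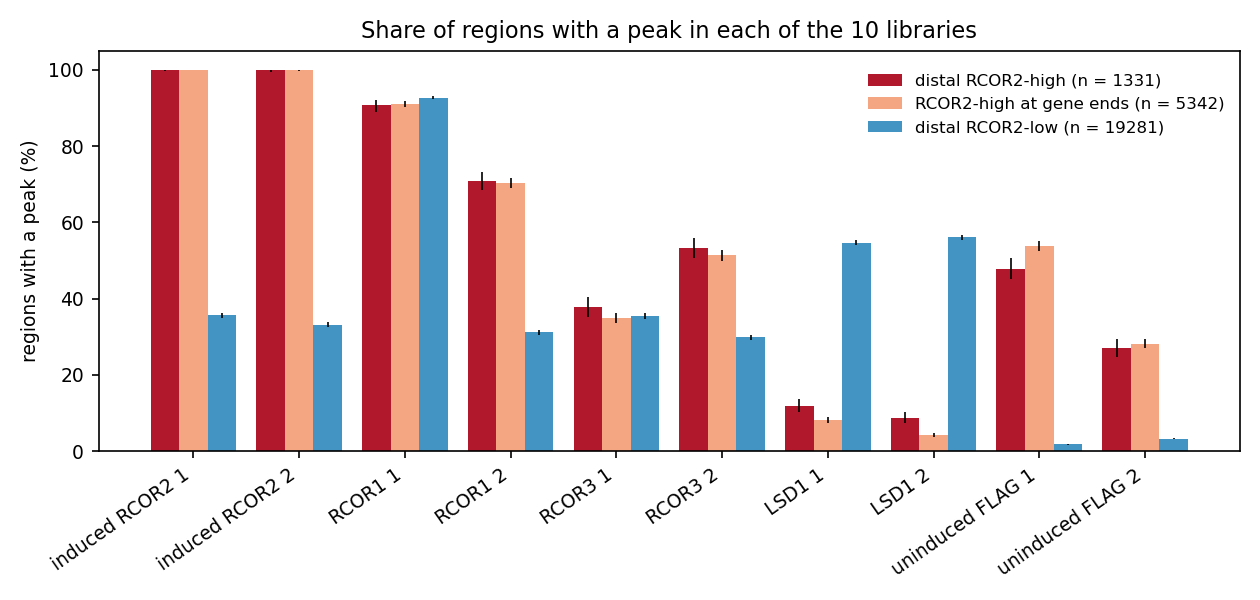
Share of regions (percent) with a peak in each of the 10 libraries, for distal RCOR2-high regions, RCOR2-high regions at gene ends and distal RCOR2-low regions, with 95% Wilson intervals for counting error. LSD1 peaks lay in 11.9% and 8.72% of the distal RCOR2-high regions, between the 8.14% and 4.10% at gene ends and the 54.7% and 56.1% of distal RCOR2-low regions.

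LSD1 and RCOR3 were found mainly in the regions that held no listed start. Of the 103 regions with both LSD1 libraries, 83 (80.6%) held none, although such regions made up 57.1% of the 1331. LSD1 was present in 10.9% of regions without a listed start, in 4.52% of those with a lncRNA start only and in 3.13% of those with a coding start. RCOR3 was present in 34.2%, 27.1% and 19.0% in the same order, while RCOR1 was level at 68.2%, 66.5% and 65.1%. Distal RCOR2-low regions had the same order for LSD1, with 48.9%, 27.8% and 19.3%, but not for RCOR3, with 22.1%, 25.3% and 18.2%. RCOR2-high regions at gene ends did not show it either: without a listed start 2.80% held LSD1 and 20.1% RCOR3, and with a coding start 3.41% and 25.5%. The split by start was chosen after the data were seen and was not tested.

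**Figure D4:**
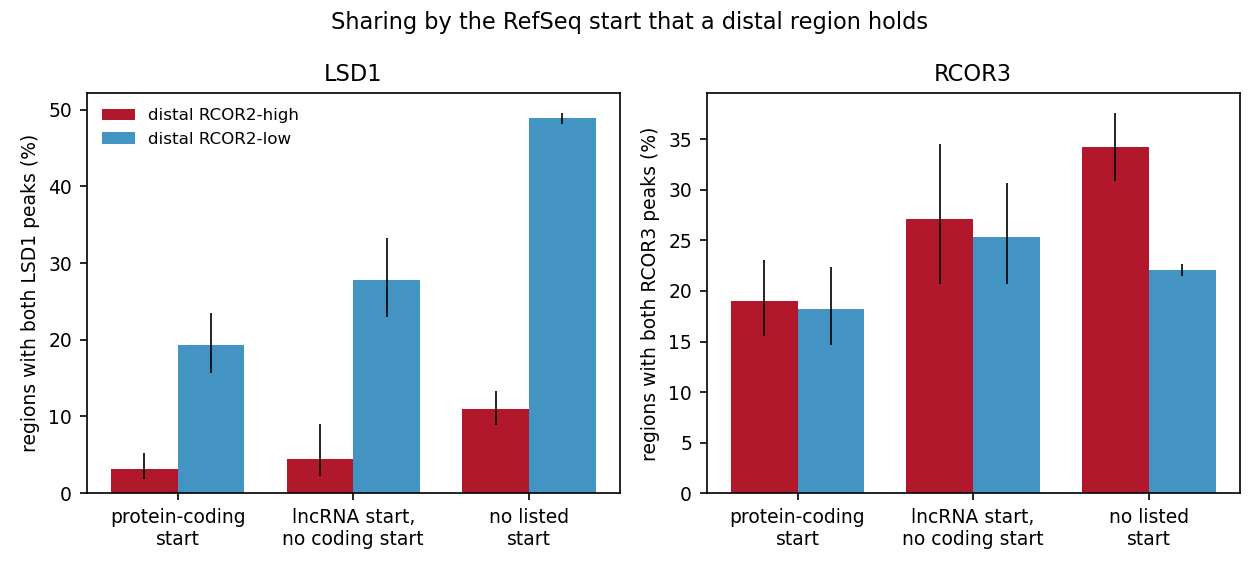
Share of distal regions (percent) with both LSD1 libraries (left) or both RCOR3 libraries (right), by the RefSeq start that the region holds, for distal RCOR2-high and distal RCOR2-low regions, with 95% Wilson intervals for counting error. LSD1 was in 3.13% of RCOR2-high regions with a coding start and in 10.9% of those without a listed start.

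Distance gave a similar picture. LSD1 was in 4.47% of the 246 regions 2 to 5 kb from a coding gene end, in 20 of the 250 from 5 to 10 kb, in 7.71% of the 584 from 10 to 50 kb, in 6.41% of the 156 from 50 to 100 kb and in 17.9% of the 95 beyond 100 kb. In distal RCOR2-low regions the shares were 23.4% in the nearest class and 66.0% in the farthest. Between protein-coding genes LSD1 was in 10.1% and RCOR3 in 35.7% of 566 regions, against 6.01% and 23.4% of the 765 inside such genes. In both lists LSD1 was thus most frequent beyond 100 kb. These shares were not tested.

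All 3 partners met at few regions. Both libraries of RCOR1, RCOR3 and LSD1 had peaks in 72 regions (5.41%). The same pattern was found in 2.06% of RCOR2-high regions at gene ends and in 15.2% of distal RCOR2-low regions. RCOR1 with RCOR3 alone was in 287 distal RCOR2-high regions (21.6%), RCOR1 alone in 510 (38.3%) and none of the 3 in 410 (30.8%). LSD1 in both libraries, without RCOR1 or RCOR3 in both of theirs, was found in 7 regions (0.526%), against 24.0% of distal RCOR2-low regions. A protein counted as absent here can still have a peak in 1 library. RCOR1 had no peak in either library in only 5.48% of distal RCOR2-high and 6.73% of distal RCOR2-low regions. In the latter, RCOR1 replicate 1 had a peak in 92.6% and replicate 2 in 31.1%. Of the 103 regions with LSD1, 95 (92.2%) held RCOR1 and 73 (70.9%) held RCOR3, against 67.0% and 28.6% of all 1331. The region bounds follow RCOR1 peaks in part, so the RCOR1 share is not independent of how the regions were drawn. LSD1 in distal RCOR2-high regions lay mostly where another CoREST protein was also called. Its summits stood a median of 205.5 and 232.5 bp from the summit of induced replicate 1, against 341 and 456 bp at gene ends and 80.0 and 72.5 bp in distal RCOR2-low regions with both induced peaks. RCOR1 summits stood 181 and 113 bp away in the same distal RCOR2-high regions. The distal RCOR2-low regions with both induced peaks were narrower, with a median of 849 bp, and the part of width in these distances was not tested.

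**Figure D5:**
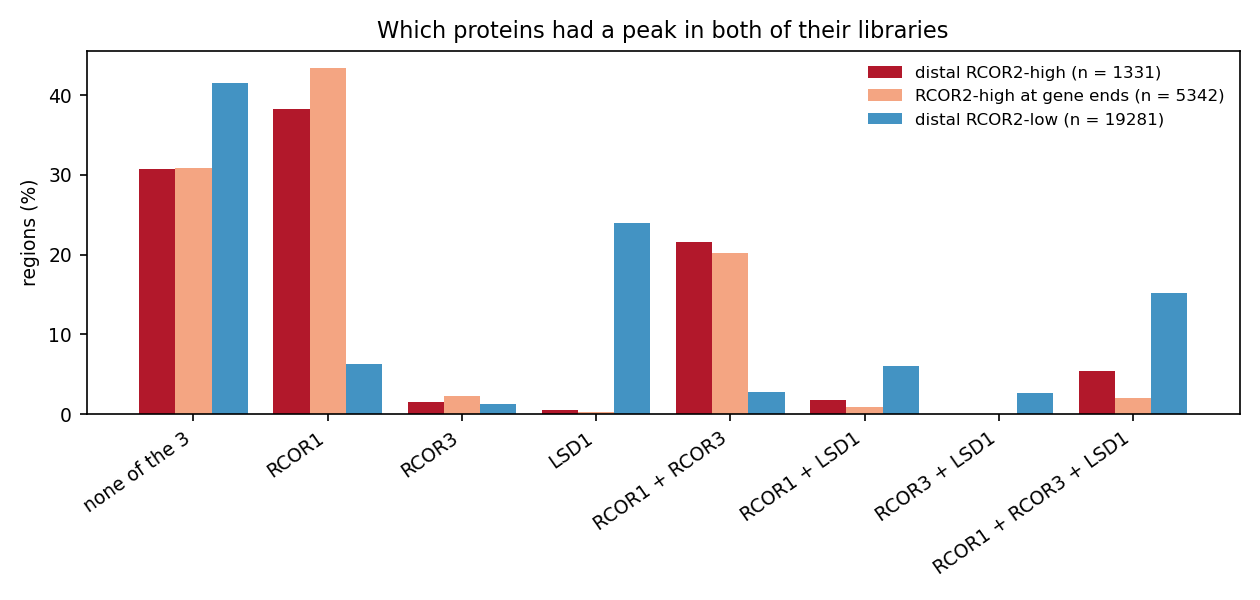
Share of regions (percent) by the proteins that had a peak in both of their libraries, among RCOR1, RCOR3 and LSD1, for distal RCOR2-high regions, RCOR2-high regions at gene ends and distal RCOR2-low regions. RCOR1 alone made up 38.3% of distal RCOR2-high regions, and LSD1 alone 0.526% of them against 24.0% of distal RCOR2-low regions. A protein with a peak in only 1 library counts as absent.

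The 6 regions with the strongest LSD1 had 9.67 to 18.1 in induced replicate 2, below the median of 39.3 over all 1331. In induced replicate 1 they had 11.2 to 21.4, where the median was 19.5. The first 6 by LSD1 rank were named after their values were seen, and 2 of them lay inside ALK, a receptor tyrosine kinase gene and neuroblastoma oncogene. At chr2:29650154-29651930 LSD1 had 30.6 and 42.8, RCOR1 25.8 and 13.8, RCOR3 12.1 and 20.5 and induced RCOR2 11.2 and 11.2, with 6.53 in uninduced replicate 2. At chr2:29261780-29263891 LSD1 had 16.2 and 21.8, and induced RCOR2 12.7 and 12.3. At the first of these regions LSD1, RCOR1 and RCOR3 all exceeded the induced RCOR2 fold. The other 4 were nearest to COL22A1, COPRS, BCAS3 and ZBTB18, a transcriptional repressor gene, with LSD1 at 15.6 to 25.7 and 24.0 to 35.7. None of the 6 held a listed start or a peak of uninduced replicate 1, and all 6 held one of uninduced replicate 2. No listed start was held by 57.1% of the 1331 regions and by 80.6% of those with both LSD1 libraries. Uninduced replicates 1 and 2 had a peak in 47.9% and 26.9% of the 1331.

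Of the regions with both LSD1 libraries, the 5 with the highest induced rank lay near AZIN1, UIMC1, RAB11FIP4, NLK and IRF2BP2. IRF2BP2, a transcriptional corepressor gene, had a region at chr1:234599265-234601912 with 40.4 and 63.7 for induced RCOR2 and 5.83 and 5.84 for LSD1. A region near NLK, a kinase gene, at chr17:28250429-28252115 had 36.0 and 63.8 for induced RCOR2, 3.20 and 3.49 for LSD1 and no uninduced peak. With the regions split by induced rank into 443 low, 445 middle and 440 high ones, LSD1 was present in 11.7%, 4.72% and 6.59%. LSD1 folds ranked the regions nearly alike in its replicates (Spearman rho = 0.857 over 103 regions), with 0.376 for RCOR1 over 892 regions and 0.39 for RCOR3 over 381.

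The uninduced libraries show what FLAG pulled down without doxycycline. Uninduced replicate 1 had a peak in 47.9% of distal RCOR2-high regions and replicate 2 in 26.9%, against 14.7% and 9.49% of all listed regions, with median folds of 5.20 and 5.12. Both had one in 216 regions (16.2%), where 4.67% of all listed regions did, and neither in 552 (41.5%). Where a region held peaks of both kinds, the induced fold was higher in all, by a median ratio of 4.30 and 4.60 for induced replicate 1 and of 8.48 and 8.31 for replicate 2. At gene ends 19.4% held both uninduced libraries, so distal regions were 3.13 points lower (difference -3.13, SE 1.15, adjusted Fisher's exact p = 0.00995), which lost its call without replicate 1 (-1.22 points). Regions with an uninduced peak held RCOR1 in 76.0%, RCOR3 in 37.1% and LSD1 in 9.11%, against 54.3%, 16.7% and 5.80% of those without. The part of these peaks in the sharing of the partners was not tested.

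Only 17 regions (1.28%) held all 8 libraries of the 4 proteins and no uninduced peak. The 5 strongest were near TPM1, a tropomyosin gene, COPZ2, MED13L, a subunit gene of the Mediator kinase module, LMO4 and LMO1. LMO1 and LMO4 encode LIM-only cofactors of transcription, and LMO1 is a neuroblastoma risk gene. The LMO1 region at chr11:8283112-8284168 had 19.4 and 27.6 for induced RCOR2, with RCOR1 at 7.38 and 6.30, RCOR3 at 6.14 and 6.65 and LSD1 at 2.80 and 4.85. The LMO4 region at chr1:87334084-87336936 had 14.4 and 37.7 for induced RCOR2, with RCOR1 at 9.39 and 5.78, RCOR3 at 5.52 and 6.31 and LSD1 at 5.09 and 8.16. LSD1 was the weakest of the 4 proteins in both replicates at LMO1, and at LMO4 in replicate 1 but not in replicate 2.

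The nearest coding genes of the 1331 regions were 1149 different genes, 5.75% of the 19974 in the table. Of these 1008 had 1 region, 114 had 2 and 27 had 3 or more, and 387 also had a RCOR2-high region at one of their ends. The gene lists below were chosen with earlier results of these data known. A gene that is long or stands alone is more often the nearest one, and the share this has in the counts was not tested.

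Adrenergic regulators, the transcription factors of the sympathetic-like state of neuroblastoma, included 8 nearest genes of 26 (30.8%), with 1 region each. GATA3 had the strongest, at chr10:8052992-8056455, which also holds the GATA3-AS1 start, with 38.2 and 75.3. KLF7 had 31.5 and 54.8, GATA2 30.4 and 43.0, SATB1, a chromatin organiser gene, 18.8 and 31.4, and TFAP2A, a neural crest factor gene, 14.9 and 54.8. SOX11 had 16.3 and 27.9, ZNF536 12.9 and 39.9, and LMO1 the values above. Of the 8, LMO1 alone had LSD1 peaks. The mesenchymal list, genes of the opposite state, had 3 of 29, which were NOTCH3, MEF2D and ZNF217.

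Genes of the LSD1-CoREST complex included 4 nearest genes of 24 (16.7%), with 8 regions. RCOR2 itself had one inside the gene, at chr11:63915956-63918694, with 29.9 and 56.9 in the induced and 5.44 and 6.13 in the uninduced libraries. The transgene carries RCOR2 sequence too, and its part in these values was not tested. GSE1, which encodes a component of the complex, had 5 regions, all inside the gene, from 17.9 to 58.1 in induced replicate 1, of which 2 held both LSD1 libraries. At chr16:85381327-85382912 in GSE1, RCOR1 reached 14.1 and 7.88 and RCOR3 9.04 and 6.11, while induced RCOR2 had 17.9 and 7.41. ZNF217, a zinc finger partner of CoREST, had 36.6 and 103 with a peak of LSD1 replicate 1 alone (2.00), and ZMYM2, another partner, had 24.3 and 46.8 without LSD1.

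Immediate early genes, which respond fast to growth signals, included 8 of 23 (34.8%) with 11 regions. JUND had 43.8 and 47.8, IER5 24.0 and 60.3, NR4A1 19.9 and 43.6 in the strongest of its 3 regions, and ATF3 19.8 and 61.6 in the stronger of its 2 regions. The region nearest to MYC, named after its values were seen, lay 50669 bp away near PVT1, a lncRNA gene, on chromosome 8, and had 12.7 and 36.1 with RCOR1 at 6.37 and 4.73 and no RCOR3 or LSD1 peak. No distal RCOR2-high region lay within 2 Mb of MYCN, a window with few listed regions of any class. Outside it lay 5337 of the 5342 RCOR2-high regions at gene ends and 19261 of the 19281 distal RCOR2-low regions. None of these named immediate early regions held both LSD1 libraries, and those of JUND (1.98) and ATF3 (2.71) held a peak of replicate 1.

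Neuronal lists varied, where 5.75% of all coding genes were nearest to a distal RCOR2-high region. REST target genes included 6 of 34 (17.6%), among them GRIN1, a glutamate receptor subunit gene, with 43.1 and 55.9 in the stronger of its 2 regions, and TUBB3, a neuronal tubulin gene, with 14.1 and 31.9. Axon guidance genes included 13 of 62 (21.0%), such as EPHA2, a receptor gene (31.5 and 32.4), NTN1, the netrin ligand gene (17.1 and 33.0) and ROBO2, a receptor gene (25.4 and 28.7). Noradrenergic transmitter genes had CHRNB4, a nicotinic receptor subunit gene, alone of 18 (5.56%), which is near the share of all coding genes. Its 2 regions differed, since the one inside the gene had 31.8 and 59.4 for induced RCOR2 and no LSD1, and the one at chr15:78670729-78673075 had 20.4 and 10.9 with LSD1 at 7.69 and 9.80. Induced replicate 1 was near the median of all 1331 regions at the second of these, and only replicate 2 was low there.

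Of the other lists, splicing factors had 5 of 30, cell cycle genes 4 of 30, p53 targets 3 of 20, MYC targets 2 of 30, HOX genes 2 of 39, other homeobox genes 6 of 72 and Schwann and glial genes 2 of 14. HNRNPF, a splicing regulator gene, had 37.6 and 71.2, MKI67, a proliferation marker gene, 31.0 and 72.8 in the stronger of its 2 regions, and HOXD13 37.1 and 43.1. BBC3, a p53-induced death gene, had 32.8 and 43.2 with LSD1 at 3.73 and 2.99. Liver genes and keratinocyte genes, markers of other tissues, had 0 of 25 and 0 of 23. At a base share of 5.75% lists this short would hold very few such genes, so these counts show no difference. No test was made between lists.

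Some regions stood in groups. Within 50 kb of each other were 307 regions (23.1%), in 134 clusters, of which 8 held 4 or more. The largest, 7 regions over 89.2 kb by BAHCC1 and SLC38A10 on chromosome 17, held the start of the lncRNA RENO1, which had 31.4 and 74.2, and the gene MIR4740, with 17.4 and 29.8. RCOR1 was in 5 of these 7, RCOR3 in 2, LSD1 in none and an uninduced peak in 6. The second, with 6 regions, was that of the 5S genes, where all 6 held RCOR1, RCOR3 and an uninduced peak and none held LSD1. A cluster of 5 by RAI1, SREBF1, a regulator gene of lipid synthesis, and TOM1L2 held LSD1 in 2.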

How the data were processed

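ChIP-seq peaks of 10 libraries in 5 groups of 2 were used. The submitters' processing notes name BWA 0.7.17, MACS2, deepTools and the build GRCh38. The fold enrichment and the −log10 q-value of each peak are the authors' deposited values. How the RCOR2-high and RCOR2-low lists were made is not stated there. Read depth is unknown, so peak numbers (10253 to 75643 per library) differ for reasons that cannot be separated here.

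A library held a region where a peak shared at least 1 bp with it, on chromosomes 1 to 22 and X. Genes and start windows came from RefSeq (GRCh38.p14). Shares were compared with two-sided Fisher's exact tests adjusted over 7 comparisons (Benjamini-Hochberg, threshold 0.05), with Wilson 95% intervals, and over libraries with an exact permutation F test, in Python 3.11.15 with SciPy 1.17.1 and statsmodels 0.14.6. Regions are not replicates, and p-values and intervals cover counting error only. Tests were checked on simulated data.

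Regions were named by induced rank (the lower of the 2 percentile ranks) within each class and list, by width, distance and number per gene. The members and lists were chosen with earlier results of these data known. Replicate numbers were not used to pair libraries in the main tests: 10 correlations of same-numbered libraries lay between -0.041 and 0.058, none over 0.1. These rest on peaks present or absent, and 1328 of the 1331 regions had both induced peaks. They cannot exclude a batch shared by libraries of the same number. Alternatives changed the window, the peaks, the regions and the libraries.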

Additional observations from a re-analysis of the deposited data

How the results depend on the processing

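Of the 7 differences tested, LSD1 against gene ends (3.09 to 7.68 points), LSD1 against distal RCOR2-low regions (-49.9 to -24.0 points) and noncoding ends (10.7 to 20.8 points) kept direction and call under every alternative run. RCOR1 against gene ends turned to -0.489 points with a window of 500 bp, -0.519 with 5 kb and -0.243 with a peak of either library, none of them called, and was called at 3.67 with peaks above the median q score and 4.83 with regions set to 500 bp. RCOR3 against gene ends lost its call with ends of any gene (1.81), without uninduced peaks (3.00) and with either library (0.622). RCOR3 against distal RCOR2-low regions turned to -4.16 without uninduced peaks and -10.2 against those with both induced peaks, and lost its call with peaks above the median q score (1.33) and regions of 500 bp (0.578). The uninduced difference lost its call with 5 kb (-2.01), peaks above the median q score (-0.585), no listed start (-2.51) and regions of 500 bp (-1.08). Leaving out 1 replicate gave 1.96 to 2.75 points for RCOR3 against gene ends, 2.29 to 23.4 for RCOR3 against distal RCOR2-low regions, -0.406 to 0.557 for RCOR1 and -5.98 to -1.22 for the uninduced difference. The cause was not tested. The number of regions was 854 away from ends of any gene, 552 without uninduced peaks and 760 without a listed start. With the replicate block, F stayed 23.1 with an exact permutation p of 0.167, the smallest that 6 assignments allow. The comparisons with distal RCOR2-low regions holding both induced peaks, with no listed start and with regions of 500 bp were added after seeing the data. Leaving out regions with a listed start removed them from the distal regions only, where LSD1 and RCOR3 had been seen to be low, so the larger LSD1 difference it gave against gene ends is no added support. Depth is unknown and RCOR1 replicates had unequal numbers of peaks (49250 and 18297), which limits what a missing peak can show.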
